A study of Mus musculus with 34 samples.

Results

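The 8 genes described here are Ky, Lrtm1 and a group of muscle genes linked to filamin C, namely Flnc, Xirp1, Xirp2, Bag3, Hspb7 and Hspb8. Ky and Lrtm1 were selected on their measured levels, which were low 24 h after myocardial infarction (MI) in the uninjected hearts of this series, and the other 6 were added for their link to filamin C and its turnover. They are 8 of 14552 genes in a first expression table of 10 libraries and 8 of 17406 genes in a second table of 24 libraries, and all 8 had a mean of at least 1 CPM (a read count scaled to the size of its library) in both.

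RNA was measured in left ventricle (LV) tissue of CFW mice, an outbred strain, with MI made by tying off the left anterior descending coronary artery for good. The first table holds uninjected hearts: 3 sham libraries (D, H and I), 3 libraries 4 h post-MI (C, D and E) and 4 libraries 24 h post-MI (C, D, G and H). The sample titles call the controls sham, whereas their labels give no operation. The paper states that the ischemic area, or the matching area of sham hearts, was collected for these libraries. The second table holds 2 sham-operated, uninjected hearts labelled 4 h, and MI hearts injected at the infarct border right after ligation with modified mRNA (modRNA), a synthetic transcript. The injected modRNA was AC in 4 libraries at 4 h, 3 at 24 h and 4 at 48 h, and Luc, the luciferase control, in 4, 3 and 4 libraries. The labels do not spell out AC, give no age or sex and do not say that each library is a separate mouse, so p-values measure the spread between these libraries. Every injected heart was also infarcted, and the sham hearts received no modRNA, so infarction and injection cannot be told apart in a comparison of Luc with sham. The second table's library names take a different form at each time point, and only those at 24 h carry Br, which the labels do not explain. Time and library set therefore cannot be told apart either. In the library names, the numbering of the shams runs on into that of the 4 h libraries. Luc at 24 h or 48 h against sham thus also sets differently named libraries against each other.

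Filamin C crosslinks actin filaments at the Z-disc, the boundary between sarcomeres, and at the intercalated disc that joins heart muscle cells. Ky, a transglutaminase-like protein of striated muscle, binds filamin C, and the Xin proteins encoded by Xirp1 and Xirp2 bind actin at the intercalated disc. Filamin that has been unfolded by mechanical strain is removed by chaperone-assisted selective autophagy (CASA), in which the co-chaperone BAG3 brings together HSPB8 and HSC70. HSPB7 is a small heat shock protein of heart and muscle that binds filamin C. Lrtm1 encodes a leucine-rich repeat transmembrane protein.

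The cardiac origin of the tissue was checked on 10 cardiomyocyte markers, whose summed level was between 24278 and 91498 CPM in all 34 libraries. Summed levels of 9 fast skeletal muscle markers stayed between 2.06 and 6.14 CPM, so markers of the other striated muscle were near 0 in every group. Of 4 atrial markers (Nppa, Myl4, Myl7 and Sln), all were called higher in Luc at 24 h against sham (median log2 difference 4.15) and 3 at 48 h (median 2.68), with a summed level of 60.7 to 117 CPM in sham, 109 to 171 in Luc at 4 h, 362 to 603 at 24 h and 533 to 1169 at 48 h. Myl7, the atrial myosin light chain, was at 17.0 to 61.3 CPM in Luc and 9.05 to 112 CPM in AC at 24 h against less than 1 CPM in sham and at 4 h, and the part of these markers in the member results of the second table was not tested. In the uninjected hearts Nppa, which encodes atrial natriuretic peptide, was at 1148 to 1820 CPM at 24 h against 79.5 to 294 CPM in sham, while Sln, encoding sarcolipin, stayed under 1 CPM and Myl4, an atrial light chain, between 0.97 and 2.55 CPM. In the uninjected hearts the summed cardiomyocyte markers were 56087 to 60092 CPM in sham, 55613 to 60170 at 4 h and 24278 to 40217 at 24 h. In the second table they were 60820 to 63111 CPM in sham, 62777 to 72617 in Luc at 4 h, 72581 to 91498 in Luc at 24 h and 39542 to 55416 in Luc at 48 h. In the first table, the listed genes of a library held an estimated 12553519 to 18952669 reads and summed to 568058 to 662286 CPM. These are reads on listed genes and not whole libraries, and the depth of the second table is unknown. In the second table the CPM of all listed genes summed to 730630 to 818456 in Luc at 24 h and 508204 to 641170 in Luc at 48 h, against 619752 and 628938 in sham, and the part of these sums in the results was not tested. In bulk tissue, fewer cells of a type and less RNA per cell cannot be told apart.

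Among the 4 Luc libraries at 48 h, 1 and 3 resembled each other (Pearson r = 0.984 over the genes tested), as did 2 and 4 (r = 0.984), while r between these pairs was 0.945 to 0.969. Against the AC libraries at 48 h, libraries 1 and 3 had r of 0.929 to 0.951 and libraries 2 and 4 had r of 0.970 to 0.981. The labels give nothing that separates these libraries. Their values are therefore given one by one, and results that rest on them are given with and without them, an alternative chosen after seeing the data.

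Short promoter sites are shown for Flnc and the 3 chaperone genes because these members matched a motif chosen for printing. Every uninjected library at 24 h was above every sham library in each of them, a pattern found in 35.3% of all genes tested. The same held for Xirp2, whose promoter matched neither printed motif, and for Xirp1, which could not be searched. RefSeq (GRCm38.p6) gave 300-base promoters, from 250 bases before to 50 bases after the transcript start, for 7 of the 8 genes, with none for Xirp1 and 2 for Flnc. Of 9 motifs searched on both strands, the heat shock element core (GAANNTTC) and the M-CAT motif (CATTCC) were chosen for printing after the matches were seen. In the lines below, written 5′ to 3′ on the strand of the gene, capitals mark the motif.
Hspb8, chr5:116422847-116422870, minus strand, motif from base 3 of the transcript: agccaggaGAAGTTTCtaggctcg
Bag3, chr7:128523617-128523632, plus strand, motif from base 43 of the transcript: tgggaccaGAAGTTTC
Hspb7, chr4:141420774-141420795, plus strand, motif from base 4 of the transcript: atcccagcCATTCCaacgtact
Flnc, chr6:29433144-29433165, plus strand, motif from 1 base before the transcript: ccgggcggCATTCCtgggaggc
The heat shock element core was in 7.86% of 32851 promoters of the same length, and CATTCC in 14.7%. The same core in the other order (TTCNNGAA, 8.52% of promoters) and TATAAA (13.6%) had no match in a member, and GATAAG (7.44%) matched Lrtm1 alone. CANNTG (72.3%) matched 5 members, CCAAT (37.4%) matched 2, and the GC-rich CCGCCC (35.7%) and GGCGGG (35.3%), which can overlap, matched 4 each. A match describes the letters of these windows and is not evidence of binding.

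Ky (chr9:102505755-102546247, plus strand) was the member with the lowest level in the uninjected hearts at 24 h. Its level was 15.8, 24.6 and 26.6 CPM in the sham libraries D, H and I, 12.4, 13.3 and 25.4 CPM in the 4 h libraries C, D and E, and 0.75, 0.22, 1.05 and 0.34 CPM in the 24 h libraries C, D, G and H. All 24 h libraries lay below all others, and sham and 4 h overlapped. The 24 h values correspond to an estimated 20, 7, 26 and 9 reads, so they rest on few reads, against 437 to 818 in sham. The mean was 0.590 ± 0.380 CPM (SD, n = 4) at 24 h against 22.3 ± 5.75 (n = 3) in sham, a 37.9-fold lower level. On the log2(CPM + 1) scale, which understates changes at such levels, the difference was -3.87. These 24 h values chose Ky and are given without a test.

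In the second table, whose values were known when the genes were chosen, Ky was at 8.83 and 23.2 CPM in the 2 sham hearts. The Ky tests there are therefore not independent of the choice. Luc hearts had 8.56, 5.93, 9.21 and 7.0 CPM at 4 h (libraries 1 to 4), 2.63, 2.59 and 1.80 CPM at 24 h (A, C and D) and 0.62, 4.26, 0.73 and 8.38 CPM at 48 h (1 to 4). All Luc libraries at 24 h were below both shams, and the 48 h libraries were split, with 1 and 3 under 1 CPM. Ky fell from sham to Luc at 24 h by 2.22 ± 0.58 (SE) on the log2(CPM + 1) scale (adjusted p = 0.00577, limma with Benjamini-Hochberg adjustment over all genes, as in all tests below). At 48 h the difference from sham was -2.17 ± 0.55 (adjusted p = 0.00528). Sham library 2 was the higher of the pair, and without it the differences were -1.57 at 24 h (adjusted p = 0.103) and -1.52 at 48 h (adjusted p = 0.119). With Luc libraries 1 and 3 left out, the 48 h difference was -1.13 (adjusted p = 0.108).

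Lrtm1 (chr14:29018208-29033642, plus strand) lies inside Cacna2d3, a calcium channel subunit gene on the minus strand whose group means were under 1 CPM throughout, and whether the strand was used in counting is not given in the sources used here. Lrtm1 was at 419, 579 and 369 CPM in the sham libraries D, H and I and at 375, 299 and 487 CPM at 4 h (C, D and E), and these groups overlapped. At 24 h it was at 6.42, 20.2, 44.9 and 14.9 CPM (C, D, G and H), all below every earlier library. The 24 h mean of 21.6 ± 16.5 CPM (n = 4) was 21.1-fold below sham (456 ± 110, n = 3). As with Ky, this fall chose the gene and carries no test.

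In the second table Lrtm1 was lower in Luc hearts than in sham. These values were known when the genes were chosen, so the Lrtm1 tests are not independent of the choice and are not a separate repeat. The 2 shams of the second table had 519 and 485 CPM. Luc hearts had 365, 390, 382 and 362 CPM at 4 h, 94.1, 143 and 160 CPM at 24 h, and 77.3, 77.6, 65.5 and 142 CPM at 48 h. Each Luc library was below both shams, and each 24 h and 48 h library was below each 4 h library. Lrtm1 fell by 1.95 ± 0.24 on the log2 scale at 24 h (adjusted p = 3.01e-06) and fell by 2.52 ± 0.22 at 48 h (adjusted p = 1.92e-07), while at 4 h the difference of -0.42 ± 0.22 did not pass (adjusted p = 0.413). Between Luc hearts at 4 h and 24 h it fell by 1.53 (adjusted p = 9.03e-06). Over all the alternatives run for the 24 h and 48 h comparisons with sham, adjusted p stayed at or below 0.00124. AC hearts followed the same order, with 380, 309, 340 and 374 CPM at 4 h, 180, 128 and 166 CPM at 24 h, and 93.0, 97.6, 102 and 101 CPM at 48 h, and the fall from 4 h to 24 h was 1.15 on the log2 scale (adjusted p = 0.000459). By group mean the order was sham (502 CPM), Luc and AC at 4 h (375 and 351), AC and Luc at 24 h (158 and 132) and AC and Luc at 48 h (98.3 and 90.7), and at each time the difference between AC and Luc was within their spread (adjusted p from 0.54 to 1).

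**Figure D1:**
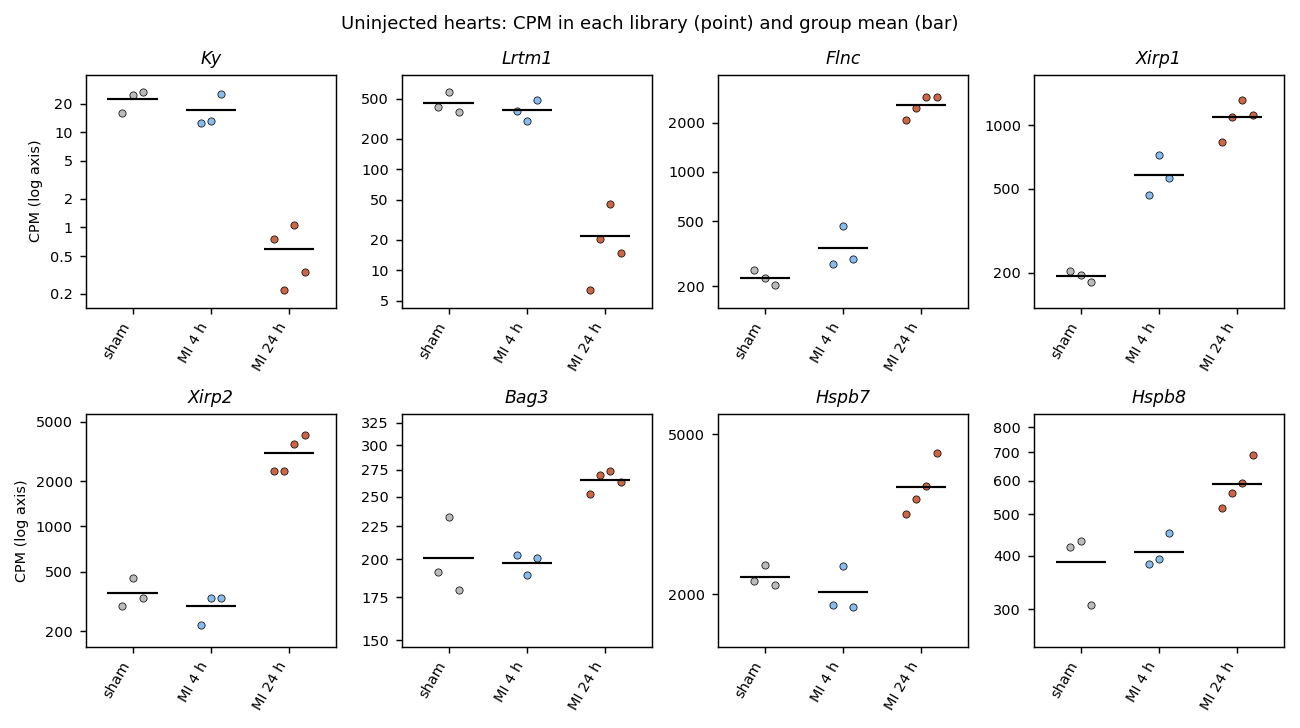
Level of each of the 8 genes in the uninjected hearts, in CPM on a log axis, with a point per library and a bar at the group mean, for 3 sham libraries, 3 libraries 4 h and 4 libraries 24 h post-MI. At 24 h every library of Ky and Lrtm1 lies below, and every library of the other 6 genes lies above, all sham and 4 h libraries.

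In the uninjected hearts, the 6 filamin-linked members were higher at 24 h in every library than in any sham or 4 h library. Over all genes tested, 35.3% had every 24 h library above every sham and 37% above every 4 h library, and 28.7% and 25.1% had every 24 h library below, so neither pattern is rare in these libraries. Since these libraries served the choice of the set, the 24 h levels are a description.

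Flnc (chr6:29433153-29461889, plus strand), which encodes filamin C, was at 252, 224 and 204 CPM in sham (D, H and I), 275, 467 and 295 CPM at 4 h (C, D and E) and 2060, 2458, 2855 and 2867 CPM at 24 h (C, D, G and H). The 24 h mean was 11.3 ± 2.09 times that of sham. At 4 h all 3 libraries were above sham, but the difference of 0.57 ± 0.21 on the log2 scale did not pass (adjusted p = 0.200). In the second table Flnc was at 144 and 195 CPM in sham, at 428, 369, 389 and 352 CPM in Luc at 4 h, at 815, 463 and 566 CPM at 24 h and at 889, 426, 1274 and 497 CPM at 48 h. No Luc library overlapped with sham. Flnc rose by 1.83 ± 0.34 at 24 h (adjusted p = 0.000383) and by 2.06 ± 0.33 at 48 h (adjusted p = 8.77e-05), and both calls held under every alternative run, including each library left out. The 4 h difference of 1.19 ± 0.33 missed the threshold (adjusted p = 0.0693).

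Xirp1 (chr9:120013755-120023598, minus strand), encoding Xin, was the member that changed at 4 h. It was at 203, 195 and 181 CPM in uninjected sham, 466, 724 and 560 CPM at 4 h and 829, 1094, 1311 and 1116 CPM at 24 h, with no overlap between any of the 3 groups. At 4 h it rose 3.02-fold, or by 1.57 ± 0.19 on the log2 scale (adjusted p = 0.00108), a comparison that shares its sham libraries with the one that chose Ky and Lrtm1. It was the only one of 8 members called at 4 h in the first table, where 2.37% of all genes were called, and 2 of 8 had an unadjusted p under 0.05. The call held in all 15 alternatives.

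Luc hearts had Xirp1 at 738, 681, 716 and 633 CPM at 4 h, 867, 942 and 1204 CPM at 24 h and 897, 265, 1056 and 267 CPM at 48 h, against 166 and 234 CPM in sham. Every Luc library was above both shams, with libraries 2 and 4 at 48 h close to them. Against sham Xirp1 rose by 1.81 ± 0.44 at 4 h (adjusted p = 0.0386), 2.33 ± 0.47 at 24 h (adjusted p = 0.00068) and 1.37 ± 0.44 at 48 h (adjusted p = 0.0233). The 4 h call was lost with any of the 6 libraries left out (adjusted p = 0.0617 to 0.439). At 48 h the call was lost without Luc library 1 (adjusted p = 0.0715), Luc library 3 (0.0787) or sham library 1 (0.198), and with Luc 1 and 3 both left out the difference was 0.43 (adjusted p = 0.403).

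Xirp2 (chr2:67446000-67526620, plus strand), the second Xin gene, took a different course. In uninjected hearts it was at 296, 452 and 332 CPM in sham, 218, 331 and 333 CPM at 4 h and 2346, 2333, 3566 and 4077 CPM at 24 h, and only the 24 h group stood apart, at 8.56 ± 3.12 times sham. At 4 h the difference was -0.30 ± 0.26 (adjusted p = 0.629). In the second table, sham had 423 and 263 CPM, and Luc had 349, 380, 408 and 342 CPM at 4 h, 299, 299 and 437 CPM at 24 h and 654, 713, 654 and 818 CPM at 48 h. Luc overlapped with sham at 4 h and 24 h and was above it at 48 h. At 24 h the difference from sham was 0.02 ± 0.28 (adjusted p = 0.957, 95% interval -0.56 to 0.60), and at 48 h Xirp2 rose by 1.08 ± 0.27 (adjusted p = 0.00403). Without sham library 2 the 48 h difference was 0.74 (adjusted p = 0.108). From 24 h to 48 h it rose in Luc by 1.06 (adjusted p = 0.00132) and in AC by 0.73 (adjusted p = 0.0145), and in Luc this held in all 17 alternatives. The AC call was lost with the compared groups alone (adjusted p = 0.0564) and without AC library A (0.0816) or D (0.0889) at 24 h or library 2 at 48 h (0.0624). At 24 h the uninjected and Luc hearts thus gave ratios to their own sham of 8.56 and 1.01, which were not compared by a test because the tables were normalized separately. Neutrophil markers summed to 307 to 1919 CPM in the uninjected 24 h hearts and to 45.7 to 89.4 CPM in Luc at 24 h, and their part in the result was not tested.

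**Figure D2:**
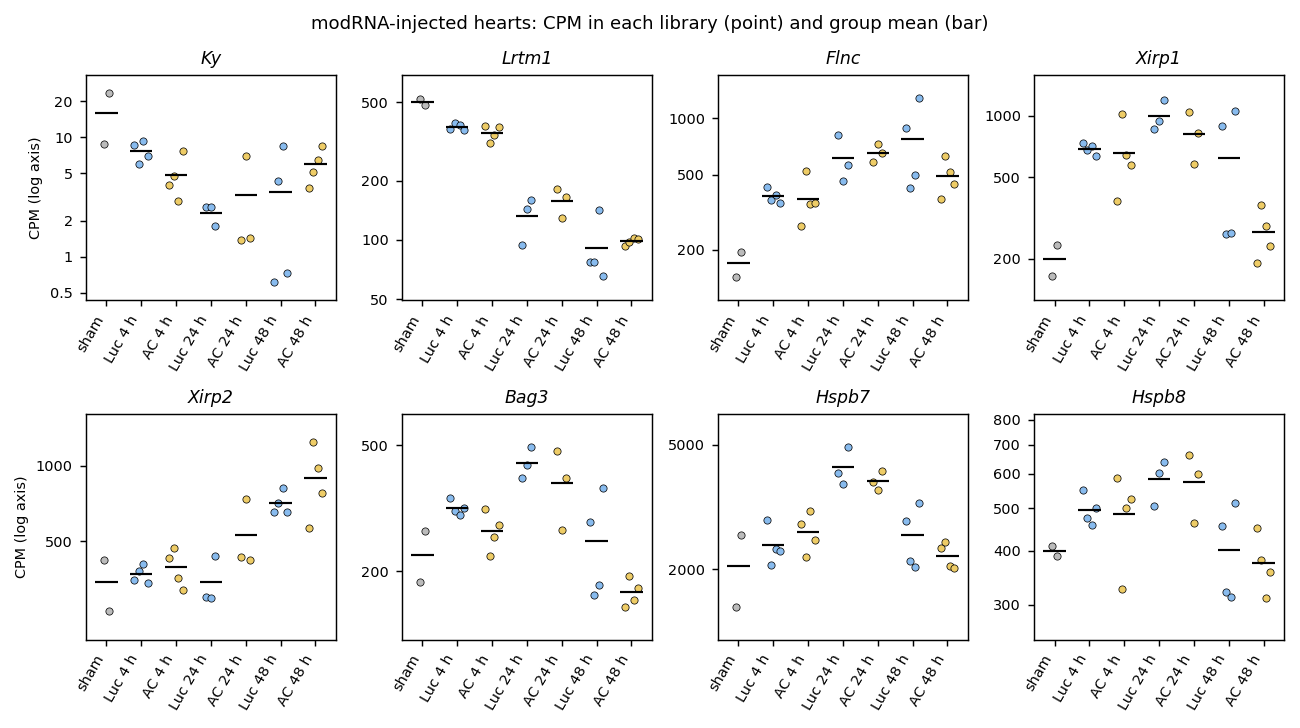
Level of each of the 8 genes in the second table, in CPM on a log axis, with a point per library and a bar at the group mean, for 2 sham hearts and for Luc and AC hearts 4, 24 and 48 h post-MI. Lrtm1 falls in steps from 4 h to 24 h, Xirp2 is highest at 48 h, and the Luc libraries at 48 h are split in Ky, Flnc, Xirp1, Bag3, Hspb7 and Hspb8.

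Bag3 (chr7:128523583-128546981, plus strand), the CASA co-chaperone, showed small differences in the uninjected hearts. It was at 192, 233 and 180 CPM in sham, 203, 189 and 201 CPM at 4 h and 252, 270, 274 and 263 CPM at 24 h, 1.31 ± 0.19 times sham at 24 h. In Luc hearts it was at 340, 310, 300 and 317 CPM at 4 h, 393, 434 and 494 CPM at 24 h and 287, 168, 366 and 181 CPM at 48 h, against 185 and 267 CPM in sham. The 4 h and 24 h libraries were above both shams, and the 48 h libraries overlapped with them. Bag3 rose by 0.98 ± 0.26 at 24 h (adjusted p = 0.0067) and had differences of 0.51 ± 0.25 at 4 h (adjusted p = 0.376) and 0.10 ± 0.25 at 48 h (adjusted p = 0.806). Without sham library 1 the 24 h difference was 0.71 (adjusted p = 0.148). From 24 h to 48 h Bag3 fell by 0.88 in Luc (adjusted p = 0.00326) and by 1.11 in AC (adjusted p = 0.000348). Without Luc libraries 2 and 4 at 48 h the Luc difference was -0.44 (adjusted p = 0.112).

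Hspb8 (chr5:116408491-116422864, minus strand), whose product pairs with BAG3, was at 419, 434 and 306 CPM in uninjected sham, 383, 393 and 453 CPM at 4 h and 518, 560, 591 and 689 CPM at 24 h. In Luc hearts it was at 552, 476, 458 and 502 CPM at 4 h, 507, 603 and 640 CPM at 24 h and 455, 322, 515 and 313 CPM at 48 h, against 409 and 388 CPM in sham. The 4 h and 24 h Luc libraries were above sham by a small margin. Hspb8 was called in no comparison with sham, with a difference of 0.54 ± 0.23 at 24 h (adjusted p = 0.0749, 95% interval 0.06 to 1.02).

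Hspb7 (chr4:141420779-141425310, plus strand) was at 2151, 2367 and 2107 CPM in uninjected sham, 1882, 2347 and 1854 CPM at 4 h and 3162, 3451, 3712 and 4483 CPM at 24 h. In Luc hearts it was at 2881, 2066, 2315 and 2281 CPM at 4 h, 4050, 3747 and 4927 CPM at 24 h and 2844, 2129, 3252 and 2040 CPM at 48 h, against 1517 and 2570 CPM in sham. The Luc libraries at 24 h stood above all sham, 4 h and 48 h libraries. Hspb7 rose by 1.09 ± 0.22 at 24 h against sham (adjusted p = 0.000819) and by 0.83 against Luc at 4 h (adjusted p = 0.00208). It then fell by 0.74 to 48 h in Luc (adjusted p = 0.00351) and by 0.80 in AC (adjusted p = 0.00169). Without sham library 1 the 24 h difference from sham was 0.71 (adjusted p = 0.0679). Without Luc libraries 2 and 4 at 48 h, the Luc difference between 48 h and 24 h was -0.47 (adjusted p = 0.0825), and that between Luc at 48 h and sham was 0.62 (adjusted p = 0.0341), against 0.35 with them (adjusted p = 0.226).

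Counted over the 8 members, 6 were called in Luc hearts at 24 h against sham, 4 higher and 2 lower, where 34.1% of all genes were called. At 48 h 5 members were called, 3 higher and 2 lower (30.1% of all genes), and at 4 h 1 was called (1.55% of all genes). The 2 lower members at 24 h and at 48 h were Ky and Lrtm1, which were chosen for low levels at 24 h in the uninjected hearts. Counts that include them, here and below, are therefore not independent of the choice. The median log2 difference of all genes tested was 0.16 at 24 h, -0.03 at 48 h and 0.02 at 4 h. Dividing by the median ratio of all genes moved the 24 h median by -0.17 and the share of higher genes among all calls from 74.2% to 53.4%, and the members called stayed at 6.

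**Figure D3:**
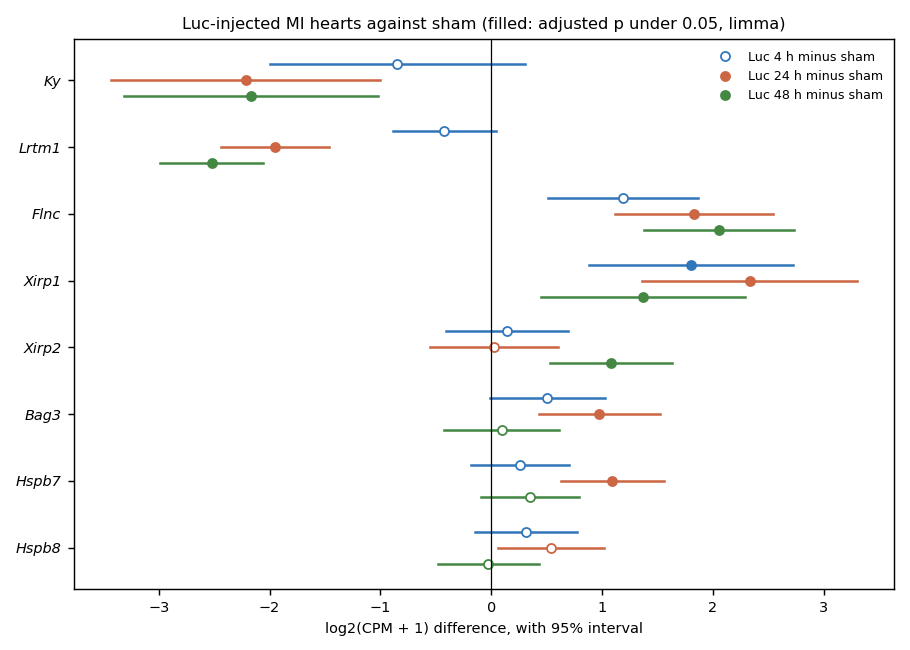
Difference between Luc and sham hearts on the log2(CPM + 1) scale for the 8 genes at 4, 24 and 48 h, with 95% intervals from limma and filled points where adjusted p was under 0.05. The points of Ky and Lrtm1 lie below 0 and those of Flnc, Xirp1, Xirp2, Bag3 and Hspb7 above 0 at all 3 times, though several of the intervals include 0. Xirp2 is filled only at 48 h.

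Between Luc hearts at 4 h and 24 h, 3 members were called (Hspb7 higher, Ky and Lrtm1 lower; 32.3% of all genes). Ky fell by 1.37 (adjusted p = 0.0355), a call lost with any 1 of 6 of the 7 libraries left out (Luc libraries 1, 3 and 4 at 4 h and A, C and D at 24 h, adjusted p = 0.0582 to 0.107). Between 24 h and 48 h, 5 members were called in Luc (Xirp2 higher, and Lrtm1, Bag3, Hspb7 and Hspb8 lower; 41.9% of all genes). Lrtm1 fell by 0.57 (adjusted p = 0.0236) and Hspb8 by 0.57 (adjusted p = 0.0232), while the median of all genes was -0.25, and both calls were lost after median-ratio scaling (adjusted p = 0.196 and 0.208). The Lrtm1 call was also lost without Luc C or D at 24 h or 1, 2 or 3 at 48 h (adjusted p = 0.0541 to 0.150), and that of Hspb8 without Luc C or D at 24 h or 2 or 4 at 48 h (adjusted p = 0.0676 to 0.0964). Without Luc libraries 1 and 3, Lrtm1 was at -0.29 (adjusted p = 0.276) and Xirp1 at -1.90 (adjusted p = 0.00012, against 0.0518 with them), and without 2 and 4, Hspb8 was at -0.26 (adjusted p = 0.344) and Flnc at 0.83 (adjusted p = 0.0216, against 0.547 with them).

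In AC hearts, 3 members were called between 4 h and 24 h (Flnc and Hspb7 higher, Lrtm1 lower; 18.7% of all genes). Flnc rose from 266, 525, 352 and 355 CPM to 583, 727 and 656 CPM, by 0.84 (adjusted p = 0.0439), and Hspb7 by 0.55 (adjusted p = 0.0435). Either call was lost with any 1 of 6 of the 7 libraries left out, the exception being AC library 2 at 4 h for Flnc and AC library 3 at 4 h for Hspb7 (adjusted p = 0.0532 to 0.153 without the others). Between 24 h and 48 h, 6 members were called in AC (Xirp2 higher, and Lrtm1, Xirp1, Bag3, Hspb7 and Hspb8 lower; 44.5% of all genes). Xirp1 fell from 1050, 579 and 830 CPM to 191, 368, 288 and 231 CPM, with no overlap, by 1.60 on the log2 scale (adjusted p = 0.00231).

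Cardiomyocyte markers moved with these later falls. Their sum was 63937 to 77437 CPM in AC at 24 h and 29919 to 36843 at 48 h. Scaled to the mean log2 level of the 10 markers, the 24 h to 48 h difference turned positive for Lrtm1 (0.18 in Luc, 0.33 in AC), Hspb7 (0.02 and 0.21) and Hspb8 (0.19 and 0.39), and for Hspb8 in AC it passed in the opposite direction (adjusted p = 0.0129). The falls of Bag3 were then -0.12 in Luc (adjusted p = 0.583) and -0.11 in AC (adjusted p = 0.577) and that of Xirp1 in AC -0.60 (adjusted p = 0.155), none of which passed. Rises not called before this scaling passed for Ky in AC (1.70, adjusted p = 0.00761) and Flnc in Luc (0.99, adjusted p = 0.0115). This scaling moved the median of all genes by 0.67 in Luc and 0.91 in AC. Against sham, the Luc falls of Ky and Lrtm1 at 24 h and 48 h kept their direction and calls under this scaling. In the uninjected hearts the ratio of 24 h to sham was 0.0465 for Ky, 0.0767 for Lrtm1, 20.1 for Flnc and 2.38 for Bag3 when scaled this way. There the scaling moved the median log2 difference of all genes by 0.752, so the higher ratios are not particular to these genes.

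AC and Luc hearts were compared at each time to ask whether AC modRNA altered these genes. No member was called at 4 h, 24 h or 48 h (limma), where 0.00796%, 0.00796% and 15.3% of all genes were called, and 0, 1 and 3 members had an unadjusted p under 0.05. At 4 h the widest interval was that of Ky, -1.56 to 0.32 around a difference of -0.62. At 24 h Xirp2 was at 435, 741 and 421 CPM in AC against 299, 299 and 437 CPM in Luc, a difference of 0.60 with a 95% interval of 0.08 to 1.12 (adjusted p = 0.991). At 48 h Ky was at 3.77, 5.08, 6.43 and 8.37 CPM in AC libraries 1, 2, 4 and 5, a difference from Luc of 0.97 (95% interval 0.03 to 1.90, adjusted p = 0.152). Xirp1 had a difference of -0.96 (interval -1.71 to -0.21, adjusted p = 0.0762) and Bag3, with 155, 193, 163 and 177 CPM in AC, one of -0.47 (interval -0.89 to -0.05, adjusted p = 0.121).

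The 48 h comparison turned on which Luc libraries were used. Without Luc libraries 2 and 4, 5 members were called, where 30.4% of all genes were: Ky by 2.00 (adjusted p = 0.00111) and Lrtm1 by 0.46 (adjusted p = 0.0454) higher in AC, and Flnc at -1.14 (adjusted p = 0.00192), Xirp1 at -1.89 (adjusted p = 0.000101) and Bag3 at -0.91 (adjusted p = 0.00158) lower. Without libraries 1 and 3 none was called (2.76% of all genes), and Ky was at -0.07 (adjusted p = 0.969). Leaving out library 2 alone gave 3 calls (15.6% of all genes) and library 4 alone gave 4 (23% of all genes). Monocyte and macrophage markers summed to 357 to 529 CPM in AC at 48 h and 141 to 215 CPM in Luc, and cardiomyocyte markers to 29919 to 36843 and 39542 to 55416 CPM, and their part in the result was not tested. The change from 4 h to 24 h differed between AC and Luc for no member (0.00796% of all genes), nor did that from 24 h to 48 h (2.56% of all genes), with no member at an unadjusted p under 0.05 in either.

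**Figure D4:**
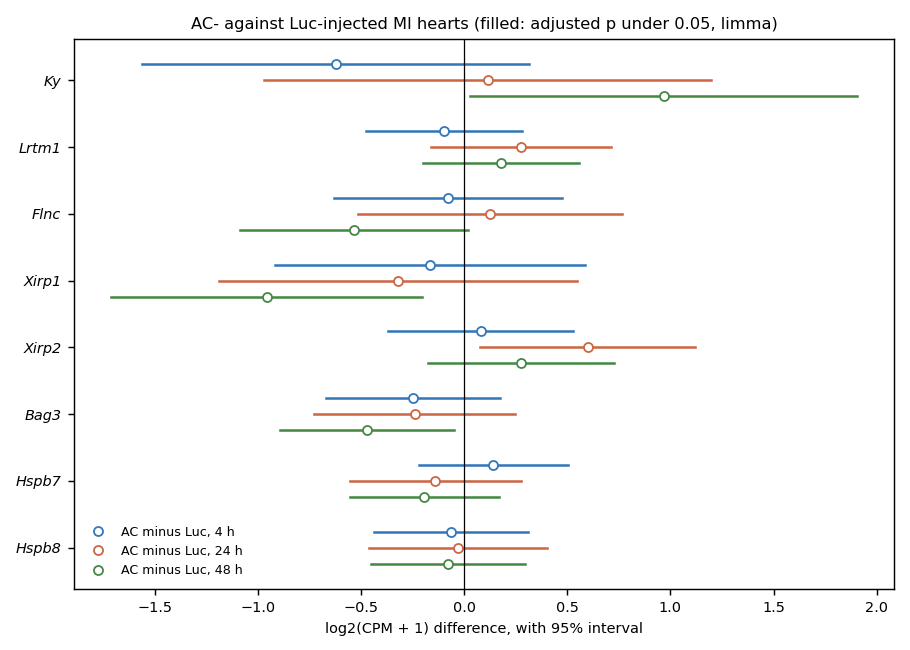
Difference between AC and Luc hearts on the log2(CPM + 1) scale for the 8 genes at 4, 24 and 48 h, with 95% intervals from limma; all points are open, as no adjusted p was under 0.05. The widest intervals are those of Ky and Xirp1, and at 48 h the intervals of Ky, Xirp1 and Bag3 leave out 0.

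Other genes of the same pathways were read as lists, against the 34.1% of all genes called at 24 h, 30.1% at 48 h and 1.55% at 4 h in Luc hearts against sham. The genes named below, at most 4 per list, were picked for the largest change in Luc at 24 h against sham. Their 24 h p-values are thus for genes picked on that same difference and are not independent tests. Of 14 CASA and filamin degradation genes, 7 rose and 1 fell in Luc hearts at 24 h against sham, with a median difference of 0.63 against 0.16 for all genes. Dnajb1, a co-chaperone of HSC70, rose from 11.2 ± 0.92 CPM (n = 2) to 55.9 ± 3.38 (n = 4) at 4 h and 28.1 ± 2.07 (n = 3) at 24 h (adjusted p = 1.22e-06 and 0.000154). Sqstm1, the autophagy receptor p62, rose by 0.82 at 24 h (adjusted p = 0.00335) and Vps18, a vesicle tethering subunit, by 0.79 (adjusted p = 0.00622). Asb2, part of a ubiquitin ligase that targets filamins, fell from 226 ± 78.9 to 121 ± 31.0 CPM (adjusted p = 0.0304). At 48 h 2 of the 14 were called, a lower share than that of all genes, and at 4 h 1.

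Of 24 partners of filamin C, Ky and Xin, 21 were tested in the second table, where 5 rose and 1 fell at 24 h (median 0.30) and 4 rose and 5 fell at 48 h (median -0.12). The 6 of 21 called at 24 h are a lower share than that of all genes, while the 4 and 5 called at 48 h are together a higher share. Synpo2l, a Z-disc protein, rose from 114 ± 19.2 to 488 ± 190 CPM at 24 h (adjusted p = 3.74e-05) and was at 330 ± 129 CPM at 48 h (adjusted p = 0.000735). Nrap, a nebulin-related anchoring protein, rose by 1.25 at 24 h (adjusted p = 0.000822) and Myot, encoding myotilin, by 1.24 (adjusted p = 0.0142), while Nebl had a difference of -0.80 (adjusted p = 0.0911).

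Of the 5 other small heat shock proteins, 4 rose at 24 h and 3 were called at 48 h. Hspb1 rose from 81.7 ± 1.30 CPM in sham to 338 ± 55.8 at 4 h and 550 ± 156 at 24 h (adjusted p = 0.000174 and 7.76e-07). Cryab, encoding αB-crystallin, rose by 1.02 (adjusted p = 0.00274), Hspb2 by 1.03 (adjusted p = 0.0154) and Hspb6 by 0.95 (adjusted p = 0.00195) at 24 h. Of the 5 other BAG genes, 2 rose at 24 h, Bag6 by 0.98 (adjusted p = 0.000529) and Bag5 by 0.58 (adjusted p = 0.0152), a share near that of all genes, while Bag2 had a difference of 0.62 (adjusted p = 0.0531) and Bag1 of -0.21 (adjusted p = 0.508).

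Of 8 genes of HSF1, the heat shock transcription factor, and inducible chaperones, 2 rose and 1 fell at 24 h, a share near that of all genes, with a median of -0.02. The 2 were Hspa1a, from 0.844 ± 0.424 CPM in sham to 30.8 ± 12.7 at 4 h and 17.2 ± 16.6 at 24 h (adjusted p = 0.0021 and 0.00357), and Hspa1b, at 0.534 ± 0.262, 22.8 ± 7.93 and 12.6 ± 10.6 CPM (adjusted p = 0.00299 and 0.00457). These are near-identical copies between which reads cannot be divided with certainty. Hspd1, a mitochondrial chaperonin, fell by 0.51 (adjusted p = 0.0192), and Hspe1 had a difference of -0.49 (adjusted p = 0.239). In the uninjected hearts, where the 24 h levels are given without a test, the 8 genes summed to 482 to 677 CPM in sham and 1849 to 1904 CPM at 24 h, against 606 to 777 CPM in the other shams and 535 to 666 CPM in Luc at 24 h. The other small heat shock proteins summed to 1662 to 1727 CPM in uninjected sham and 6350 to 10329.5 CPM at 24 h, and the CASA genes to 1880 to 2599 and 3572 to 4397 CPM. The filamin C, Ky and Xin partners overlapped between these groups (4837 to 5373 and 5190.5 to 8032 CPM), as did the other BAG genes (261 to 289 and 267 to 329 CPM). Cacna2d3 and Lrtm2, the host gene and paralog of Lrtm1, were too low to be tested.

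**Figure D5:**
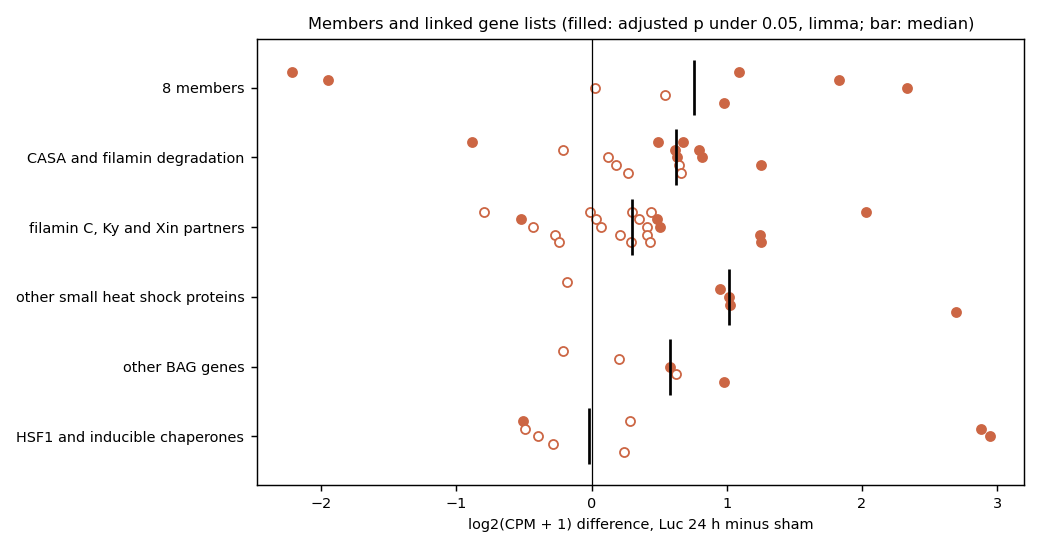
Difference between Luc hearts at 24 h and sham on the log2(CPM + 1) scale for the 8 genes and the tested genes of 5 linked lists, with a point per gene, filled where adjusted p was under 0.05 (limma), and a bar at the median of each list. The medians are 0.63 for CASA genes, 0.30 for filamin C, Ky and Xin partners, 1.02 for small heat shock proteins, 0.58 for BAG genes and -0.02 for HSF1 and inducible chaperones.

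The genes closest in pattern were ranked among 7351 genes by the lower of their Pearson correlations over the 10 and the 24 libraries. These libraries share group differences and normalization, so the values are a description. For Lrtm1 they were Rbfox1, a splicing factor (r = 0.969 and 0.965), Stk39 (0.975 and 0.954) and Asb14 (0.986 and 0.950). For Ky they were Fbxo10 (0.947 and 0.909), Plekha6 (0.971 and 0.909) and Ddhd2 (0.893 and 0.902). For Flnc they were Ptpn12, Itga5 and Mxd1, for Xirp1 Mafk, Sphk1 and Csrnp1, and for Xirp2 Lcp1, Myo5a and Edem1. For Bag3 the closest was Sqstm1 (0.937 and 0.951), itself a CASA gene, before Pttg1ip and Srp68. For Hspb7 they were Brap, Pi4k2a and Ube2g2, and for Hspb8 Cyth2, Wdr45b and Ppp2r2d. Among the members, Bag3 and Hspb8 had r of 0.897 and 0.868, and Xirp1 and Xirp2 had r of 0.755 in the first table and -0.339 in the second.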

How the data were processed

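Deposited values were CPM. For the first table the authors sequenced poly(A) RNA as single 50-bp reads, used STAR on mm10, obtained counts per RefSeq gene from Partek's E/M algorithm and normalized by TMM. For the second table the deposited CPM carry an added 1, which was subtracted, and processing beyond mm10 is not given in the sources used here. Of the first table's values under 1 CPM, 82.7% were whole multiples (tolerance 0.02) of the value of 1 read, too few to recover reads for a count test.

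limma 3.58.1 (R 4.3.3; lmFit, eBayes with trend) was run on log2(CPM + 1), on the 12487 and 12555 genes averaging 1 CPM or more, with all groups of a table in 1 model and Benjamini-Hochberg adjustment over all genes. The script was tested on simulated data. Fold changes are ratios of mean CPM with propagated SDs. Python 3.11.15 was used otherwise.

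Members and lists were chosen with earlier results of these data known. Named genes were the 8 members, at most 4 per list by size of change in Luc at 24 h against sham among those averaging 10 CPM or more, and 3 closest genes per member. Alternatives were a pseudocount of 0.1, other filters, compared groups alone, no trend, array weights, 2 rescalings, a replicate block and each library left out.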

Additional observations from a re-analysis of the deposited data

Results flagged for a closer look

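In 40 checks of a single library against the others of its group, 1 was far from the rest, and chance gives about 1 in 20. Lrtm1 in the Luc hearts at 48 h was at 142 CPM in library 4, against 77.6 CPM in the nearest and 65.5 CPM in the lowest of the other 3. Without library 4, the difference between AC and Luc at 48 h in Lrtm1 was 0.42 on the log2 scale (adjusted p = 0.0462, limma), against 0.18 with it (adjusted p = 0.54).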

How the results depend on the processing

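Lrtm1 and Flnc at 24 h and 48 h against sham, and Xirp1 at 4 h in the uninjected hearts, kept their direction and call under every alternative run. The count of members called otherwise moved by over 1.5 times as follows, and the cause was not tested. With array weights it was 2 for 4 h against sham in the uninjected hearts, 3 for Luc at 48 h against sham, 5 for Luc at 24 h against 4 h and 5 for AC at 24 h against 4 h. With the compared groups alone it was 2 for Luc at 4 h and 3 for Luc at 48 h against sham, 6 for Luc at 24 h against 4 h and 3 for Luc at 48 h against 24 h. Without a filter on low values it was 0 for Luc at 4 h against sham and 1 for AC at 24 h against 4 h. After median-ratio rescaling it was 1 for AC against Luc at 48 h, 3 for Luc at 48 h against 24 h and 1 for AC at 24 h against 4 h. In the same order, 1615, 4078 and 2094 of all 12555 genes were then called. After rescaling by cardiomyocyte markers the member count was 0 for Luc at 4 h against sham, 3 for AC against Luc at 48 h, 2 for Luc at 48 h against 24 h and 3 for AC at 48 h against 24 h. In that order, 138, 7190, 6158 and 9871 of all 12555 genes were called. The 3 members for AC against Luc at 48 h were Ky, Lrtm1 and Xirp2, each higher in AC. With Luc libraries 1 and 3 at 48 h left out, chosen after seeing the data, the member count was 3 for Luc at 48 h against sham. With libraries 2 and 4 left out it was 5 for AC against Luc at 48 h, 3 for Luc at 48 h against 24 h and 3 of 16 in the comparison of the time courses. Here and below, member counts without one over all genes describe the fits and are not a result about the members.

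The replicate numbers and letters were not used as pairs in the main fit. Libraries sharing one had correlations of deviations between -0.265 and 0.498, with those of sham and AC at 0.334 to 0.498. Whether they mark pairs was not tested. With a replicate block, 0 members were called in Luc at 4 h against sham (Xirp1, adjusted p = 0.0971), 4 in Luc at 48 h against sham (Xirp1, adjusted p = 0.0579), 1 in the uninjected hearts at 4 h and 0 in AC against Luc at each time. The blocked differences of Xirp2 (0.023) and Hspb7 (0.14) at 4 h in the uninjected hearts and of Hspb8 between AC and Luc at 48 h (0.072) changed sign.

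With each library left out in turn, members called numbered 0 to 0 for Luc at 4 h against sham, 0 to 4 for AC against Luc at 48 h, 3 to 5 for Luc at 48 h against 24 h, 1 to 2 for AC at 24 h against 4 h and 3 to 7 for AC at 48 h against 24 h. The lower counts came without Luc C or D at 24 h or Luc 2 at 48 h (3 each), without AC 1 or 4 at 4 h or A or D at 24 h (1 each), and without AC A at 24 h (3). The 16 pairs of groups described for 24 h in the uninjected hearts stayed apart in all 10.

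Of 1374 member values under an alternative, 66 changed sign, 60 of them past the threshold in neither fit. After rescaling by cardiomyocyte markers, the log2 differences that changed sign were Xirp2 in Luc against sham at 4 h (-0.00361) and 24 h (-0.34), Hspb8 in AC against Luc at 24 h (0.095) and 48 h (0.29) and in Luc at 48 h against sham (0.37), Hspb7 in AC against Luc at 48 h (0.18), Lrtm1, Hspb7 and Hspb8 in Luc at 48 h against 24 h (0.18, 0.017 and 0.19), and Lrtm1, Flnc, Hspb7 and Hspb8 in AC at 48 h against 24 h (0.33, 0.57, 0.21 and 0.39). After median-ratio rescaling they were Bag3 in the uninjected hearts at 4 h (0.038), Xirp2 in Luc at 24 h against sham (-0.17), Hspb8 in AC against Luc at 24 h (0.00638) and Hspb8 in Luc at 48 h against sham (0.035). With array weights they were Hspb8 in the uninjected hearts at 4 h (-0.00276), Xirp2 and Hspb8 in AC against Luc at 4 h (-0.055 and 0.053), Ky and Hspb8 at 24 h (-0.28 and 0.034), Hspb8 at 48 h (0.081), Bag3 in Luc at 48 h against sham (-0.22) and Flnc in Luc at 48 h against 24 h (-0.10). With a pseudocount of 0.1, Ky in Luc at 48 h against 24 h was at -0.15. Without Luc libraries 1 and 3, they were Bag3 in Luc at 48 h against sham (-0.35), Flnc in Luc at 48 h against 24 h (-0.38) and Ky, Lrtm1, Flnc, Hspb7 and Hspb8 in AC against Luc at 48 h (-0.068, -0.097, 0.072, 0.081 and 0.23). Without 2 and 4 they were Hspb8 in Luc at 48 h against sham (0.28) and Ky in Luc at 48 h against 24 h (-0.99).

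With a library left out, differences crossed 0 in the uninjected hearts at 4 h for Bag3 (-0.10 to 0.090) and Hspb8 (-0.062 to 0.19), and in Luc against sham for Xirp2 (-0.20 to 0.49) and Hspb7 (-0.12 to 0.64) at 4 h, Xirp2 at 24 h (-0.32 to 0.37), and Bag3 (-0.17 to 0.36), Hspb7 (-0.030 to 0.73) and Hspb8 (-0.16 to 0.083) at 48 h. Between AC and Luc they did so at 4 h for Flnc (-0.25 to 0.071), Xirp1 (-0.41 to 0.066), Xirp2 (-0.0095 to 0.17) and Hspb8 (-0.17 to 0.11), at 24 h for Ky (-0.46 to 0.41), Flnc (-0.057 to 0.35) and Hspb8 (-0.14 to 0.12), and at 48 h for Hspb8 (-0.18 to 0.054). In Luc from 24 h to 48 h they did so for Ky (-0.44 to 0.41) and Flnc (-0.061 to 0.47).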
